A study of Homo sapiens with 2 samples.

Results

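The genes described here take iron into the cell, store it, export it, release it from haem and regulate these steps. They were 34 genes, chosen by name as an iron metabolism set. On the array 19775 genes had a probe set annotated to them alone, 31 of the 34 among them, and 26 of the 34 were measured, meaning that their signal reached a floor of 208 units on at least 1 array; a probe set is called measured on an array where it reached that floor. The floor was the 90th percentile of the signals of 191 probe sets for odorant receptors, bitter taste receptors and keratin-associated proteins of hair, which this line is not expected to express. Total RNA came from stably transfected SK-N-MC, a human tumour line that the submitters call a neuroepithelioma line and that is now placed in the Ewing tumour family. 1 Affymetrix U133 Plus 2.0 array held hyperexpression clone 4, which carries the human melanotransferrin cDNA in the pCMV-Script plasmid, and 1 array held the vector control 1, which carries the plasmid with no insert. Both lines went through the same transfection. The clone and the control each stand for 1 line, so a property of either line and an effect of melanotransferrin cannot be told apart. With 1 array per group there was no spread between samples and no test, and every ratio below describes these 2 arrays.

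Cells take up ferric iron bound to transferrin through the transferrin receptor, reduce it in endosomes with STEAP ferrireductases and move it into the cytosol through the divalent metal transporter. Spare iron is held in ferritin shells of heavy and light chains, and ferroportin is the exporter. Iron regulatory proteins bind hairpins in messenger RNAs, called iron-responsive elements, and so block translation of ferritin or stabilise the transferrin receptor message when iron is low. In the body, the liver hormone hepcidin removes ferroportin from the cell surface. Melanotransferrin is a membrane-anchored relative of transferrin that binds iron.

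Melanotransferrin (MELTF) read 4449.4 in the clone and 18.4 in the vector control on the probe set annotated to the inserted transcript, which is at least 21.4-fold higher in the clone against the floor. Its other 3 probe sets read 209.3 and 245.8, 125.5 and 64.4, and 10.8 and 19.2, clone first, so they did not carry this difference. All 7 Ewing family markers with a value, CD99 and NKX2-2 among them, were measured on both arrays. Of the markers of cells in which some iron genes are best known, 8 of 8 for hepatocytes, 5 of 6 for macrophages, 3 of 5 for erythroid cells and 5 of 5 for enterocytes were below the floor on both arrays. Their summed signals, in that order, were 641.3, 503.5, 712.5 and 261 in the clone and 895.3, 888.7, 851.8 and 527.5 in the control. The background probe sets had a median signal of 44 in the clone and 67.4 in the control. With each array's background median subtracted, an alternative chosen after seeing the data, SLC11A1 had a log2 ratio of -1.73 and ACO1 of 0.66, and the bounds of HAMP, STEAP3 and TMPRSS6 were 0.54, -0.36 and -0.25, no longer past 1.5-fold; CP was then below the floor on both arrays.

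Among the 26 measured members, SLC11A1 was the 1 gene at least 2-fold lower in the clone and 0 were at least 2-fold higher; among all 12663 measured genes 1.9% were at least 2-fold lower and 1.21% at least 2-fold higher. At a 1.5-fold size, ACO1 and HAMP were higher and SLC11A1, STEAP3 and TMPRSS6 lower, 2 and 3 of 26 members, against 5.38% and 8.43% of all measured genes. The members' median log2 ratio was -0.085, or -0.063 once the median of all measured genes (-0.022) is subtracted, and 14 of 26 lay below that median, as did 50% of all measured genes. By role, the medians relative to all genes were 0.024 for 8 measured uptake genes, -0.095 for 4 storage genes, -0.083 for 3 export genes, 0.057 for 4 genes of haem breakdown and -0.11 for 7 regulators. These shares and medians lay close to those of the whole array.

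The arrays had been scaled to the same mean, and the spikes added during preparation pointed in opposite directions, so each direction given below is one relative to the bulk of genes. Centring on the hybridisation spikes moved every log2 ratio up by 0.50, and centring on the poly-A spikes moved it by -0.61. At the 2-fold size this gave 2 members higher and 1 lower in the clone with the hybridisation spikes and 0 higher and 4 lower with the poly-A spikes. Of all measured genes, 7.57% were then 2-fold higher and 0.25% lower with the hybridisation spikes, and 0.10% higher and 15.4% lower with the poly-A spikes, so the members followed the whole array. Over the settings tried, 12 members were under the all-gene median in each setting that measured them, and 7 were over it. Of all measured genes, 37.7% stayed under and 37.9% over it in the same way. The spike centrings move every gene alike and cannot change a side. A change of floor hardly moves the ratio of a gene above the floor on both arrays. Leaving out chromosome 9 changes no ratio of the other genes. Staying on a side is thus in part fixed by the settings. The 12 were SLC11A1, SLC11A2, STEAP3, LRP1, FTL, PCBP1, CP, BLVRB, HFE, TMPRSS6, BMP6 and NDRG1. The 7 were CYBRD1, STEAP2, SLC25A37, HPX, ACO1, FBXL5 and HAMP. The other 7 measured members (SLC25A28, PCBP2, NCOA4, SLC40A1, FLVCR1, HMOX2 and BLVRA) changed side in at least 1 setting.

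**Figure D1:**
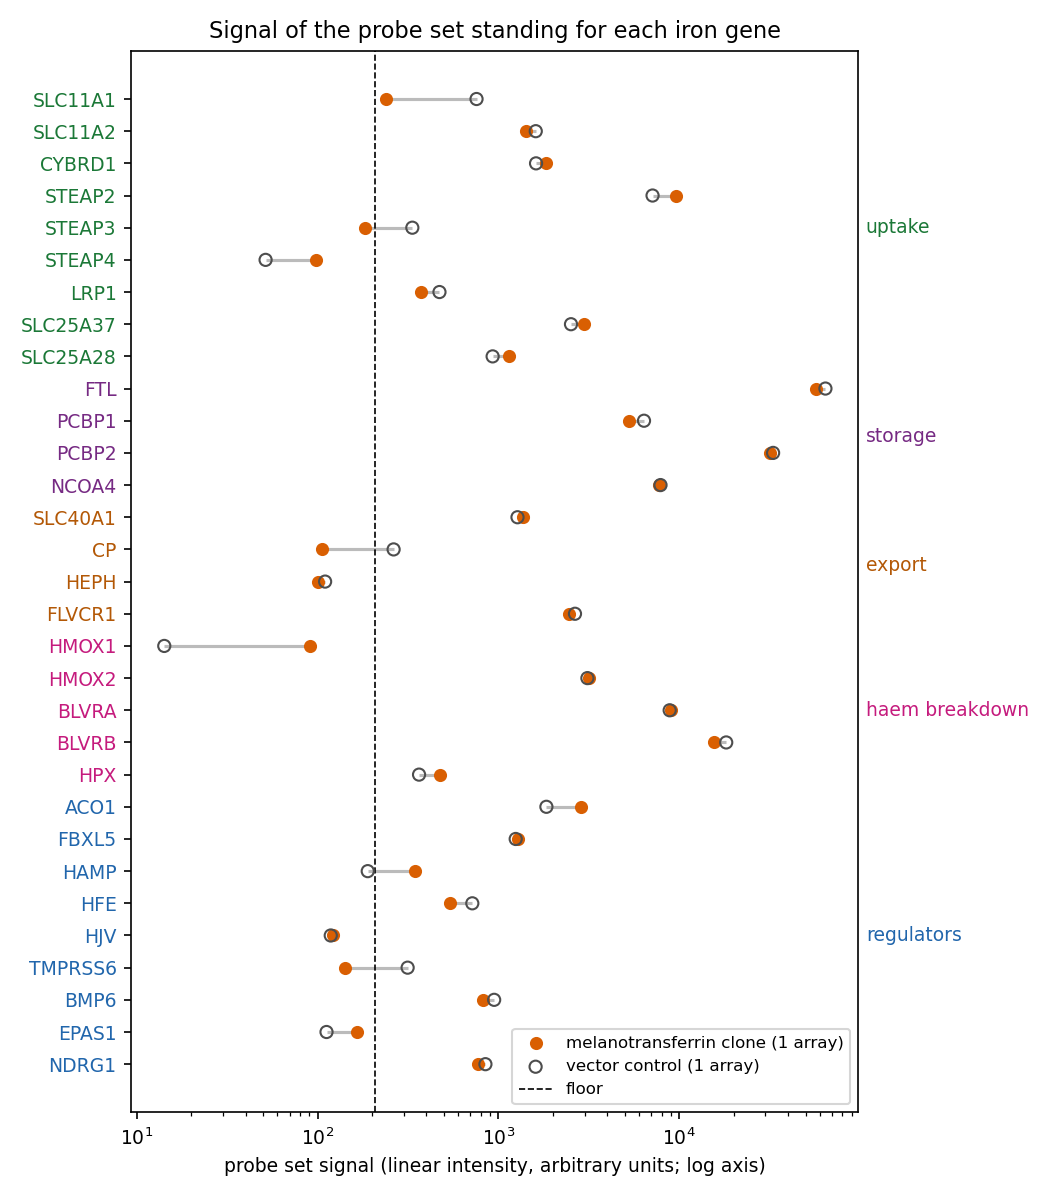
Signal of the brightest probe set of each of the 31 members with a value, on a log axis, with the clone as filled and the vector control as open circles and the floor of 208 as a dashed line. Most pairs of circles nearly coincide; SLC11A1, at 238.2 in the clone and 757.2 in the control, is the widest pair measured on both arrays.

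2 sequences bear on how members are controlled. The first is part of the 5′ iron-responsive element of FTL, with the loop but not the whole stem. It is shown because FTL is the only ferritin chain with a value on these arrays. It is also shown because this hairpin acts on translation, which an expression array does not read. It lies on the plus strand at chr19:48965331-48965355 of GRCh38.p14 (RefSeq), within the start of the transcript, and the capitals mark the CAGTG of the hairpin loop, which begins at base 39 of the transcript.
FTL element (part): ctgtctcttgcttcaaCAGTGtttg
The second is the 250 bases before the start of HAMP, shown because HAMP is the 1 member measured in the clone alone. It lies on the plus strand at chr19:35282278-35282527 of the same build, and the capitals mark GGCGCC, the core of the BMP-responsive element through which SMAD proteins act, and TTCTTGGAA, the STAT site.
HAMP promoter: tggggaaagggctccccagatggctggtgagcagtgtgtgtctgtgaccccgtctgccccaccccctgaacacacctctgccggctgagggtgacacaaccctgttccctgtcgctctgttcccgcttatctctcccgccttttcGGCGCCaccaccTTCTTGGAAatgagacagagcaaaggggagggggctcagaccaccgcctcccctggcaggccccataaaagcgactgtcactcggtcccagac

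RefSeq start windows were found for 28 of the 34 members, 38 windows in all because some genes have several starts. The loop letters CAGTG were searched on the sense strand over the 50 bases after the start. They were in windows of 5 members (FTL, HAMP, HJV, NCOA4 and SLC11A1). That is 5 of the 38 member windows, or 13.2%, against 6.48% of all 35116 windows. The GGCGCC letters were searched on both strands over the 250 bases before the start. They were in windows of 6 members (ACO1, BLVRA, HAMP, HMOX2, IREB2 and STEAP3). That is 15.8% of member windows, against 16.4% of all windows, so their presence is common. The STAT letters TTCTTGGAA, on both strands of the same stretch, were in the HAMP window alone among members. That is 1 of 38 member windows, or 2.63%, against 0.31% of all windows. In HAMP the GGCGCC began 105 bases and the STAT letters 93 bases before the start, with 6 bases between them. These matches describe letters in fixed windows only.

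The uptake genes gave the largest difference among the members, in SLC11A1. SLC11A1 encodes NRAMP1, the iron and manganese transporter of macrophage phagosomes (chromosome 2). Its brightest probe set read 238.2 in the clone and 757.2 in the vector control, 3.18-fold lower in the clone, a log2 ratio of -1.67. Only 0.12% of the 10795 genes measured on both arrays had a lower log2 ratio. SLC11A1 itself had a mean signal between 208 and 500. Genes in that range had the widest spread of all signal ranges, with an SD of 0.51. Of their log2 ratios, 90% lay between -0.96 and 0.73. The SLC11A1 value rested on 1 of 6 probe sets, a design marked as sharing sequence with other transcripts. The other 5 were below the floor on both arrays, and 2 of them, at 149.6 and 76.5 and at 90.1 and 57.4 (clone first), pointed the other way. Of the 6 macrophage markers with a value, CD14, CD163, CSF1R, MARCO and LYZ were below the floor on both arrays, and MSR1 read 171.1 in the clone and 516.6 in the control.

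SLC11A2, the divalent metal transporter DMT1 that carries ferrous iron out of endosomes (chromosome 12), read 1413.7 in the clone and 1609.8 in the control, a log2 ratio of -0.19. All 4 of its probe sets measured on both arrays were lower in the clone, by log2 ratios between -0.46 and -0.16. The pooled SD between probe sets of the same gene, over 5387 genes, was 0.35 on the log2 scale. 3 of the 4 SLC11A2 values are smaller than that SD. The fifth probe set read 228.7 in the clone and 97 in the control.

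The ferrireductases, which turn ferric into ferrous iron, did not move alike. STEAP2 (chromosome 7) read 9634.4 in the clone and 7122.5 in the control, 1.35-fold higher in the clone on its 1 probe set. Of all genes measured on both arrays, 9.94% had a higher log2 ratio than its 0.436. Genes with a mean signal between 5000 and 20000, STEAP2 among them, had an SD of 0.24. Of their log2 ratios, 90% lay between -0.33 and 0.445, an upper end close to the STEAP2 value. STEAP3, the main endosomal ferrireductase of erythroid precursors (chromosome 2), read 181.9 in the clone and 334.3 in the control, so it was at least 1.61-fold lower in the clone, a bound that was under 1.5-fold after background subtraction. Its second probe set was below the floor on both arrays. STEAP4 read 98.6 in the clone and 51.6 in the control and was below the floor on both. CYBRD1, the duodenal cytochrome b reductase (chromosome 2), read 1844.8 in the clone and 1615.8 in the control, a log2 ratio of 0.19, with -0.061 on its other probe set. STEAP2 and CYBRD1 thus lay above the median of all genes and STEAP3 below it.

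LRP1, the receptor that clears haem bound to hemopexin (chromosome 12), read 372.1 in the clone and 472.3 in the control, a log2 ratio of -0.34. A second probe set read 285.9 in the clone and 531.5 in the control, a log2 ratio of -0.89. Both lie in the low range, where genes with a mean signal between 208 and 500 had an SD of 0.51. The mitochondrial iron importers mitoferrin 1 and mitoferrin 2 are encoded by SLC25A37 (chromosome 8) and SLC25A28 (chromosome 10). SLC25A37 read 2971.6 in the clone and 2521.3 in the control, a log2 ratio of 0.24. Of its 9 probe sets measured on both arrays, 6 were higher and 3 lower in the clone, and the log2 ratios ran from -0.19 to 0.77. SLC25A28 read 1139 in the clone and 929.5 in the control, a log2 ratio of 0.29, but its other measured probe set read 822.2 and 1173.1 in the same order, a log2 ratio of -0.51. The probe sets of both mitoferrins therefore disagreed in direction.

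**Figure D2:**
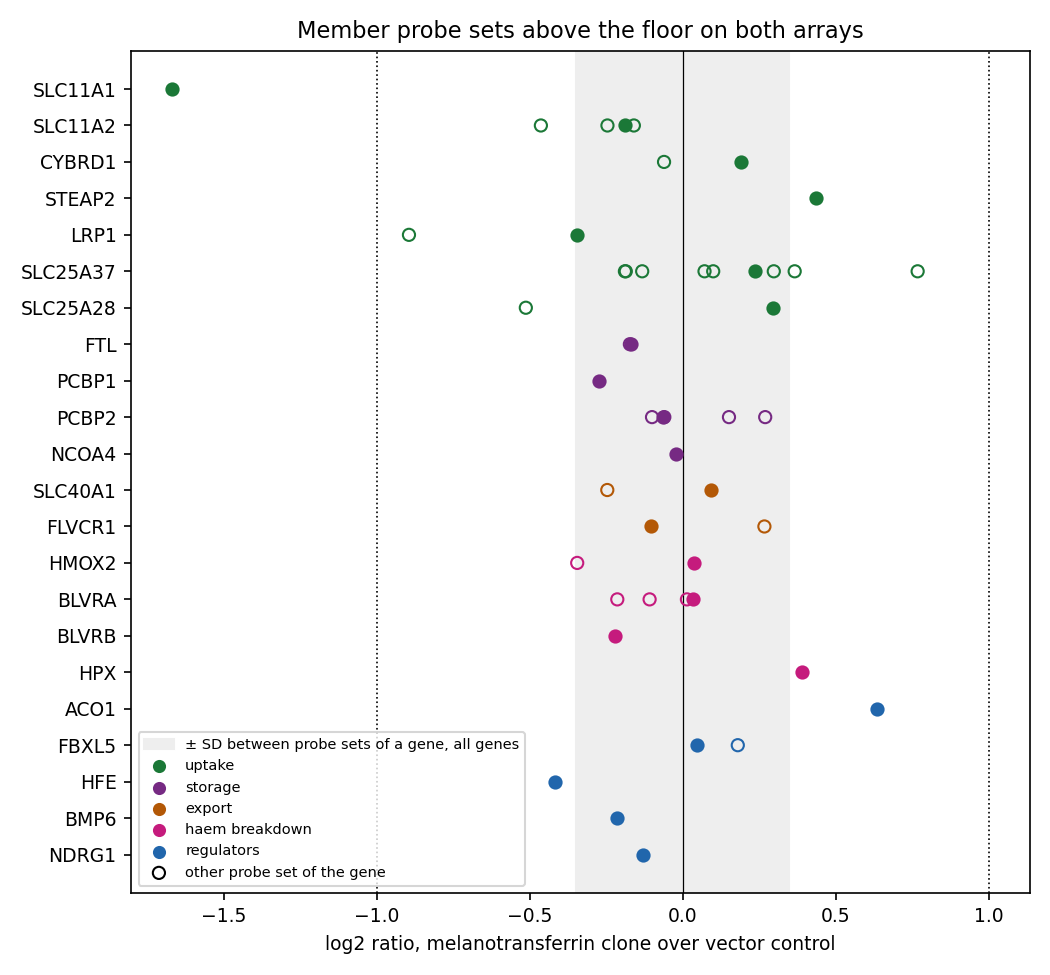
Log2 ratio of the clone over the vector control for the 48 member probe sets measured on both arrays; filled circles stand for the gene, open circles are its other probe sets, dotted lines mark 2-fold and the grey band is the SD of 0.35 between probe sets of a gene. Only the SLC11A1 point, at -1.67, lies beyond 2-fold, and SLC25A37 spreads from -0.19 to 0.77.

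The storage genes lay near or slightly below the median of all genes. FTL, the ferritin light chain (chromosome 19), whose element is shown above, read 57289.9 in the clone and 64371.8 in the control. Its second probe set read 47854 in the clone and 53945.4 in the control, and both gave a log2 ratio of -0.17. The 2 designs share sequence with other transcripts. The 430 genes with a mean signal over 20000 had a median log2 ratio of -0.028 and an SD of 0.18, and 90% of them lay between -0.27 and 0.30, a range that holds the FTL value. FTH1, the heavy chain with ferroxidase activity, and FTMT, the mitochondrial ferritin, have no value because no probe set was annotated to either here. A probe set annotated to the ferritin heavy chain pseudogene FTH1P5, of a design that shares sequence with other transcripts, read 36315.7 in the clone and 45992.9 in the control, a log2 ratio of -0.34; which transcripts it reads cannot be told apart.

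The iron chaperones PCBP1 and PCBP2 deliver iron to ferritin and also bind RNA. PCBP1 (chromosome 2) read 5282.8 in the clone and 6388 in the control, a log2 ratio of -0.27 on 1 probe set. PCBP2 (chromosome 12) read 31598.4 in the clone and 33059 in the control, a log2 ratio of -0.065, and its 5 probe sets measured on both arrays ran from -0.10 to 0.27. NCOA4, the receptor that carries ferritin to the lysosome for breakdown (chromosome 10), read 7765.9 in the clone and 7882.6 in the control, a log2 ratio of -0.022, at the median of all genes. None of these storage values passed the SD between probe sets of a gene.

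Of the export genes, the exporter itself was nearly equal on the arrays. SLC40A1, ferroportin (chromosome 2), read 1359.7 in the clone and 1275.7 in the control, a log2 ratio of 0.092. Its second probe set read 350.2 in the clone and 415.5 in the control, a log2 ratio of -0.25, so the direction is not settled. FLVCR1, a transporter first described as a haem exporter (chromosome 1), read 2467 in the clone and 2652.7 in the control, a log2 ratio of -0.10, with 0.27 on its other probe set. The ferroxidases that oxidise iron leaving the cell were low. CP, ceruloplasmin (chromosome 3), read 106.2 in the clone and 263.4 in the control, at least 1.27-fold lower in the clone, and its other 3 probe sets were below the floor on both arrays. HEPH, hephaestin (chromosome X), was below the floor on both arrays, at 100.8 in the clone and 110.1 in the control.

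CP, STEAP3 and TMPRSS6 reached the floor in the vector control alone, 3 of 26 members, against 11.3% of all measured genes. HAMP reached it in the clone alone, 1 of 26, against 3.49%. The members' count on the control side is thus near that of the whole array.

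Haem breakdown was represented mainly by its constitutive enzymes. HMOX1, the inducible haem oxygenase that splits haem into iron, carbon monoxide and biliverdin (chromosome 22), read 90.9 in the clone and 14.2 in the control, below the floor on both arrays, so no ratio is given. HMOX2, the constitutive haem oxygenase (chromosome 16), read 3190.2 in the clone and 3107.4 in the control, a log2 ratio of 0.038, with -0.34 on a dimmer probe set. BLVRA and BLVRB are biliverdin reductases that form bilirubin. BLVRA (chromosome 7) read 9056.1 in the clone and 8858.5 in the control, a log2 ratio of 0.032, and its 4 probe sets measured on both arrays ran from -0.21 to 0.032. BLVRB (chromosome 19) read 15623 in the clone and 18197.4 in the control, a log2 ratio of -0.22 on 1 probe set. HPX, hemopexin, the plasma protein that binds free haem (chromosome 11), read 477.4 in the clone and 364.2 in the control, 1.31-fold higher in the clone, and its second probe set was below the floor on both arrays. All 4 measured genes of this group lay within 1.5-fold.

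**Figure D3:**
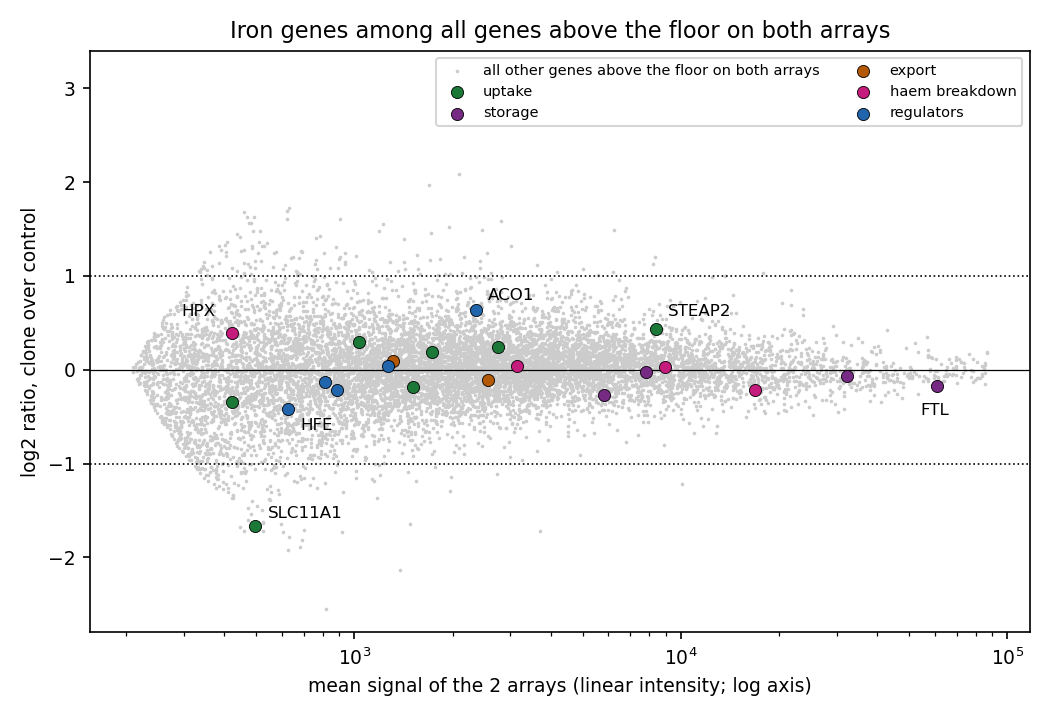
Log2 ratio of the clone over the vector control against the mean signal of both arrays, on a log axis, for the 10795 genes measured on both arrays (grey) and the 22 members among them (coloured by role); dotted lines mark 2-fold. SLC11A1, at -1.67, lies near the lower edge of the grey cloud, which narrows with signal.

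Among the regulators, ACO1 was 1.55-fold higher in the clone. ACO1 is the cytosolic aconitase that becomes iron regulatory protein 1 when it lacks its iron-sulfur cluster (chromosome 9). It read 2858.3 in the clone and 1843.3 in the vector control, a log2 ratio of 0.63, and 4.38% of genes measured on both arrays had a higher ratio. The ACO1 value came from a design marked as sharing sequence with other transcripts. The second ACO1 probe set, not so marked, was below the floor on both arrays, at 139.3 in the clone and 193.4 in the control. Chromosome 9 as a whole stood higher: its 445 genes measured on both arrays had a median log2 ratio of 0.48, against -0.0038 for the other chromosomes. Within chromosome 9, 32.8% of genes had a higher ratio than ACO1.

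Most genes next to ACO1 in the chromosome order were higher in the clone too. Of the 12 nearest genes measured on both arrays, 6 on each side, 10 were higher in the clone, with a median log2 ratio of 0.52 and a range from -0.91 to 1.45. 5 of the 12 had a higher ratio than ACO1. Its neighbour TOPORS read 3388.7 in the clone and 2123.1 in the control, a log2 ratio of 0.67, and APTX read 3828.3 in the clone and 2312.9 in the control, a log2 ratio of 0.73. RIGI, which comes between ACO1 and TOPORS, read 804.8 in the clone and 876.9 in the control, a log2 ratio of -0.12. MOB3B, on the other side, had the lowest log2 ratio, -0.91. ACO1 was the 1 measured member on this chromosome. The part of the chromosome-wide difference in the ACO1 value was not tested.

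**Figure D4:**
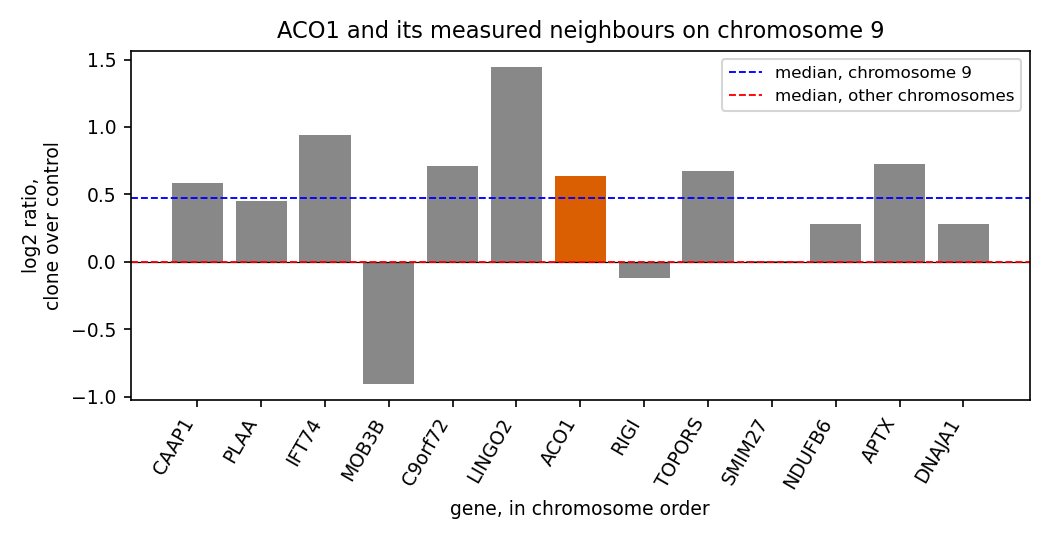
Log2 ratio of the clone over the vector control for ACO1 (orange) and the 12 nearest genes measured on both arrays, in chromosome order, with dashed lines at the median of chromosome 9 (0.48) and of the other chromosomes (-0.0038). 10 of the 12 neighbours are above 0, and the ACO1 bar, at 0.63, is near the neighbours' median of 0.52.

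The other iron-sensing genes had values for FBXL5 and NDRG1, both close to the median of all genes. IREB2, iron regulatory protein 2, has no value because no probe set was annotated to it here. FBXL5, the iron-binding subunit of the ubiquitin ligase that removes IREB2 when iron is plentiful (chromosome 4), read 1286.3 in the clone and 1246.9 in the control, a log2 ratio of 0.045, with 0.18 on its second probe set. EPAS1, the hypoxia-inducible factor HIF2A whose message carries an iron-responsive element (chromosome 2), was below the floor on both arrays by all 3 probe sets, the brightest at 165.3 in the clone and 112.1 in the control. NDRG1, which iron chelators are known to induce (chromosome 8), read 774.6 in the clone and 847.9 in the control, a log2 ratio of -0.13. TFRC, the transferrin receptor whose message the iron regulatory proteins stabilise, had a log2 ratio of -0.27 on its brightest probe set and of -0.18 and -0.84 on the other 2 measured on both arrays.

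Of the hepcidin genes, HAMP, TMPRSS6 and HJV lay near or below the floor, and BMP6 and HFE above it on 1 probe set each. HAMP, hepcidin itself (chromosome 19), read 346.1 in the clone and 189.5 in the control on its 1 probe set, so it was at least 1.66-fold higher in the clone, a bound that passed 1.5-fold without background subtraction and not with it. All 8 hepatocyte markers, ALB and APOA1 among them, were below the floor on both arrays. TMPRSS6, the protease that lowers hepcidin by cutting hemojuvelin (chromosome 22), read 141.7 in the clone and 314.9 in the control, at least 1.51-fold lower in the clone (a bound under 1.5-fold after background subtraction), and its other 2 probe sets were below the floor on both arrays. HJV, hemojuvelin, a BMP co-receptor (chromosome 1), was below the floor on both, at 122.4 in the clone and 118.3 in the control. BMP6, the ligand that raises hepcidin when iron is high (chromosome 6), read 817.3 in the clone and 947.6 in the control, a log2 ratio of -0.21. HFE, the haemochromatosis protein (chromosome 6), read 537.3 in the clone and 717.5 in the control, a log2 ratio of -0.42. This came from the 1 of its 15 probe sets measured on both arrays, a design marked as sharing sequence with other transcripts. Among the other HFE probe sets, those at 153.5 and 272.7 and at 201.7 and 277.9 (clone first) reached the floor in the control alone. The rest were below it on both arrays. With HAMP and TMPRSS6 known by bounds alone, these values give no common direction for the hepcidin genes.

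Of 73 other genes of iron handling, grouped in 6 lists, 60 were measured, 0 passed 2-fold in either direction, and 3 were at least 1.5-fold higher and 5 at least 1.5-fold lower in the clone. These counts are near the shares of all measured genes, 5.38% and 8.43% at 1.5-fold and 1.21% and 1.9% at 2-fold. Their median log2 ratio was -0.0032 relative to all genes, and 30 of 60 lay below that median. The hepcidin pathway list, made up of BMP receptors, SMAD proteins and their partners, had a relative median of 0.29. Of its 13 measured genes, 8 were above the median of all genes and 5 below it. The 5 were SMAD7 (log2 ratio -0.25), SMAD1 and SMAD4 (-0.22 each), FURIN (-0.16) and ACVR1 (-0.13). This list median was not computed under the other settings. In that list NEO1, neogenin, a partner of hemojuvelin, read 1326.3 in the clone and 793.6 in the control, but its second measured probe set had a log2 ratio of -0.0086. ID1, a BMP target gene, read 6099.6 in the clone and 4386.7 in the control. The inhibitory SMAD6 read 2011.3 in the clone and 1482.4 in the control, whereas SMAD7, also an inhibitory SMAD, read 286.4 and 339.7 in the same order. The relative medians of the other 5 lists lay between -0.058 and 0.036.

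The remaining genes past 1.5-fold are given with what their other probe sets show; those of RAB12 and NEO1 not named were below the floor on both arrays. VHL, which marks hypoxia-inducible factors for breakdown, read 781.2 in the clone and 418.2 in the control, whereas its second probe set read 86.4 in the clone and 274.7 in the control. HIF3A was at least 1.53-fold higher in the clone from a control signal under the floor, and 0 of its 7 probe sets were measured on both arrays. ATG16L1, an autophagy protein, was 1.91-fold lower in the clone on 1 probe set, whereas the other gave a log2 ratio of -0.0070. BOLA2, a partner of glutaredoxin in iron-sulfur handling that has a near-identical gene copy, was 1.81-fold lower in the clone, at 351.3 against 635.7, and its second probe set read 164.9 in the clone and 241 in the control. RAB12, a small GTPase of endosomes that sorts the transferrin receptor, was 1.68-fold lower in the clone, at 1104.2 against 1853.4, with a log2 ratio of -0.47 on its second measured probe set. FLVCR2 was 1.51-fold lower in the clone, at 234.6 against 355.3, but a second probe set, just under the floor, read 205.9 in the clone and 30 in the control. TFR2, the second transferrin receptor, was at least 1.88-fold lower in the clone on 1 probe set, and its other 2 were below the floor on both arrays.

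Over probe sets in place of genes, the picture was the same in size. The members had 97 probe sets, of which 41 were below the floor on both arrays and 48 above it on both. Of all 41097 single-gene probe sets, 17101 were below it on both arrays and 20191 above it on both. Of the 48, 20 were higher and 28 lower in the clone, and of the 20191, 9840 were higher and 10345 lower. The median log2 ratio was -0.083 for the 48 and -0.010 for the 20191. 1 of the 48, or 2.08%, passed 2-fold, against 2.44% of those 20191. For the 12 members with at least 2 such probe sets the pooled SD within a gene was 0.26. Of the 22 members measured on both arrays, 14 had a log2 ratio no larger than that in size. For the SD of 0.35 over all genes it was 17. The share of all genes within these sizes was not counted, so neither count sets the members apart.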

How the data were processed

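The authors deposited 1 linear intensity value, the probe set signal, for each of 54675 probe sets on each of 2 arrays. Per the submitters' processing notes the software was GCOS 1.3; how probes were summarised and to which target arrays were scaled is not given in the sources used, and detection calls were not used here. The mean after trimming 2% at each end was 1000.12 on both arrays, so the authors' values were scaled per array and a change shared by most transcripts cannot be seen. Precision is limited by the number of arrays.

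Gene names came from the 2016 platform annotation (41097 with 1 symbol, 1801 with several, 11777 with none here), updated by gene ID through RefSeq GRCh38.p14. A gene stands as its brightest single-gene probe set. Signals under the floor were set to it, so a ratio with 1 array under it is a bound, written "at least". All 34 members are named; other genes are named when at least 1.5-fold apart or as context. The members and lists were chosen with earlier results of these data known. Python 3.11.15, numpy 2.4.6, pandas 2.3.3, statsmodels 0.14.6 and matplotlib 3.10.9 were used. The fold rule was tried on simulated data, with changes planted only in genes well above the floor and the same spread at every signal. That trial does not cover signals near the floor.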

Additional observations from a re-analysis of the deposited data

How the results depend on the processing

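12 alternatives were run, 2 of them (background subtraction; chromosome 9 genes left out) chosen after seeing the data. No replicate could be left out, and no paired analysis was possible because each group holds 1 array. As reported, 0 members were at least 2-fold higher, 1 lower, and 2 and 3 were at least 1.5-fold higher and lower. With the floor 2 times as high the 2-fold lower count was 0 and the 1.5-fold counts 1 higher and 1 lower. Of all measured genes, 0.47% were then at least 2-fold lower, and 4.62% and 3.84% at least 1.5-fold higher and lower. The uptake median relative to all genes was 0.18 at that floor, and the SLC11A1 log2 value, then a bound, was -0.86. With no floor, 1 and 3 members were at least 2-fold higher and lower and 4 at least 1.5-fold higher (of all genes 7.80%, 17.4% and 13.0%), and the relative medians were 0.055 for all members, 0.27 for uptake and 0.12 for regulators. When each gene stood as the middle value of its measured probe sets, the uptake median was -0.10. On probe sets without shared sequence, 17 members were measured, SLC11A1, ACO1 and FTL not among them. The 2-fold lower count was 0 and the 1.5-fold counts 1 higher and 1 lower. Of all genes measured in this way, 1.76% were at least 2-fold lower, and 6.46% and 8.33% at least 1.5-fold higher and lower. The medians relative to all genes were 0.20 for uptake and -0.21 for haem breakdown. Centred on the hybridisation spikes, 2 members were at least 2-fold higher, 8 at least 1.5-fold higher and 1 at least 1.5-fold lower; centred on the poly-A spikes, 4 were at least 2-fold lower, 0 at least 1.5-fold higher and 15 at least 1.5-fold lower. These centrings move all genes alike (median of all genes 0.48 and -0.63), and 7.57% and 0.10% of all genes were then at least 2-fold higher and 0.25% and 15.4% at least 2-fold lower; 36.7% were at least 1.5-fold higher under the first and 55.9% at least 1.5-fold lower under the second. Background subtraction left 1 member (ACO1) at least 1.5-fold higher and 1 (SLC11A1) lower, with HAMP, STEAP3 and TMPRSS6 no longer past it. Of all measured genes, 6.89% and 6.74% were then at least 1.5-fold higher and lower. Leaving out chromosome 9 left 1 member at least 1.5-fold higher, against 4.15% of all measured genes. ACO1, HAMP, SLC11A1, STEAP3 and TMPRSS6 were past 1.5-fold as reported, and 0 of them turned sign where measured. Centred on the poly-A spikes, the log2 ratios of ACO1 and HAMP were 0.024 and 0.13. Centred on the hybridisation spikes, those of STEAP3 and TMPRSS6 were -0.18 and -0.097. Other members turned sign between these centrings, among them STEAP2 (0.94 with the hybridisation and -0.17 with the poly-A spikes) and FTL (0.33 and -0.78). The causes of the moves were not tested. Signals within a few fold of the floor limit STEAP3, CP, TMPRSS6, HAMP and SLC11A1 most.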
